A study of Mus musculus with 14 samples.

Results

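The group described here is 10 genes of the Notch pathway and the Deltex family, out of 55487 genes in the deposited table: Notch1, Notch2, Jag1, Rbpj, Maml1, Hes1, Hey1, Nrarp, Dtx2 and Dtx4. They were picked on the level of Dtx4 in resident mast cells, which was higher after MC903 treatment, and the other 9 were added as genes of the same pathway. All 10 were found in the table by symbol, and 8 passed the filter on low counts. Hey1 and Nrarp did not pass it and are given by their values alone.

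RNA was sequenced in 14 libraries of mouse ear skin mast cells, each from a sorted pool of at most 100 cells. MC903 (calcipotriol, a vitamin D analogue) is applied to mouse skin as a model of atopic dermatitis. Resident mast cells came from untreated mice (5 libraries, numbered 1 to 5) and from MC903-treated mice (5 libraries, 6 to 10). The last group (4 libraries, 11, 13, 14 and 15) came from MC903-treated mice. Its labels call it bone marrow mast cells, and the protocol names integrin β7-positive cells as the other sorted population. Strain, age, sex and length of treatment are not given in the sources used here. Nothing in the labels says whether libraries came from separate mice, so p-values measure only the spread between these libraries, part of which may be technical.

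Notch receptors are membrane proteins that are cut when a ligand of the Jagged or Delta-like type on a neighbouring cell binds them. The freed intracellular part enters the nucleus, joins the DNA-binding protein RBPJ and a Mastermind coactivator, and switches on targets of the HES and HEY repressor families and Nrarp, a feedback inhibitor. Deltex proteins are E3 ubiquitin ligases that bind Notch receptors and act on their trafficking and turnover. In mouse mast cells, Notch2 signalling has been linked to differentiation from bone marrow progenitors.

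Library totals ran from 13068078 to 31781926 counts, so that 1 CPM (counts scaled to library size with TMM factors, the usual CPM unit) stood for 15.6 to 28.9 counts. The floor of 3 counts was at 0.104 to 0.193 CPM. All 10 mast cell markers listed (Kit, Fcer1a, Ms4a2, Cpa3, Mcpt4, Cma1, Tpsb2, Hdc, Gata2 and Mitf) had counts in every group, and their summed level was 84650 CPM or more in every library. Library 15 stood apart: its 7 macrophage and dendritic cell markers summed to 6230 CPM, against 3.92 to 11.1 CPM in libraries 11, 13 and 14. That sum was 0.142 to 8.14 CPM in untreated resident and 8.49 to 21.7 CPM in MC903 resident libraries, with no overlap. In library 15 it came mostly from C1qa, C1qb, C1qc, Adgre1 and Csf1r (786, 2252, 1749, 341 and 1100 CPM). There Cd207 and Flt3 were at 0.15 and 1.26 CPM. Summed endothelial markers (6 genes) were at 1.70 to 8.90 CPM in untreated resident, 13.1 to 35.5 CPM in MC903 resident and 8.59 to 39.9 CPM in bone marrow libraries. Summed T cell markers (6 genes) were at 0.0748 to 5.93, 0.462 to 43.8 and 4.09 to 83.8 CPM in the same order. In bone marrow cells Pecam1 had a mean of 23.2 CPM, against 0.863 CPM in untreated cells, while the other 5 endothelial markers had means of 0.0209 (Cdh5) to 1.35 CPM (Kdr), against 0.275 (Tie1) to 2.41 CPM (Vwf). Of the T cell markers, Cd4 had the highest mean in bone marrow cells (28.6 CPM), but in library 14 it was at 0.766 CPM, where Cd3d was at 16.8 CPM. Summed basophil markers (4 genes, of which Gata1 and Cd200r3 are also known from mast cells) were at 576 to 845, 591 to 913 and 374 to 1650 CPM in the 3 groups. Among them Mcpt8, a basophil protease, had means of 23.3, 19.2 and 328 CPM, and its bone marrow libraries (46.5 to 976 CPM) lay above all untreated ones. Prss34 had means of 0.376, 10.2 and 5.23 CPM. In bulk pools such as these, fewer cells of a type and less RNA per cell cannot be told apart.

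Promoter sequences are shown for the members whose window holds the core RBPJ motif TGGGAA or its reverse TTCCCA, and for Nrarp, a textbook Notch target, as a comparison. RefSeq promoters (GRCm38.p6) matched 7 of the 10 members, with 8 start sites. Dtx4, Hes1 and Hey1 had no match, so their promoters were not searched. Each of the 8 start sites was searched on both strands over the 250 bases before the start. The motif was in the windows of 2 of the 7 members searched, Rbpj and Dtx2. Rbpj had 3 matches over its 2 overlapping windows, of which 2 are the same site. That site, TTCCCA, lies in an annotated Rbpj exon and is not in the stretch printed below. Dtx2 had 1 match, 23 bases before the start. Of all 32851 promoter windows, 21.6% held the motif. In the sequences, printed 5′ to 3′ on the plus strand with the motif in capitals, the Rbpj stretch stops where an annotated exon begins. A match is a run of letters in a window and was not tested for binding.
Rbpj, chr5:53590096-53590213: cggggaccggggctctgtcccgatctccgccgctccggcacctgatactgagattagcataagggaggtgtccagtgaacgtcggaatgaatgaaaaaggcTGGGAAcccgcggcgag
Dtx2, chr5:135994550-135994799: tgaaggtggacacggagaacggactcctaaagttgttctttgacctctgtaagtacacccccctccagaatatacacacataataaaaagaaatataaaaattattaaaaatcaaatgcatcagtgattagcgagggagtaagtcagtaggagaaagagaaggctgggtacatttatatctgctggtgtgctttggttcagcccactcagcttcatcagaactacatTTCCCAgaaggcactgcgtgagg
Nrarp, chr2:25180508-25180757: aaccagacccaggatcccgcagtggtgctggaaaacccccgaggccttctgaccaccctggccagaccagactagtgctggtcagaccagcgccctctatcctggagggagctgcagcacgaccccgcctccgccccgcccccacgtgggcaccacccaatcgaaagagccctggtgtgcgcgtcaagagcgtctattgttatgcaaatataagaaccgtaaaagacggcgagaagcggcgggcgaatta

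Dtx4 (ENSMUSG00000039982.8, mm10 chromosome 19, 12466338 to 12501454, minus strand), a Deltex E3 ubiquitin ligase, was the member that set the group apart. In untreated resident libraries 1 to 5 it was at 0, 6.70, 1.12, 0.378 and 6.85 CPM. MC903 resident libraries 6 to 10 held 65.4, 56.5, 35.5, 114 and 52.8 CPM. In bone marrow libraries 11, 13, 14 and 15 it was at 67.6, 71.0, 30.7 and 38.2 CPM. Every library of treated mice lay above every untreated library, and the 2 treated groups overlapped. Untreated libraries were themselves split, with 154 and 164 counts in libraries 5 and 2 and 0 to 30 counts in libraries 1, 3 and 4. The mean was 3.01 ± 3.46 CPM (SD, n = 5) in untreated resident, 64.8 ± 29.6 CPM (SD, n = 5) in MC903 resident and 51.9 ± 20.4 CPM (SD, n = 4) in bone marrow cells.

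The MC903 resident level of Dtx4 chose the group, so its log2 difference from untreated cells, 4.42 ± 0.965 (SE), is given as a description. The difference between bone marrow and untreated cells was 4.10 ± 0.969 (SE) on the log2 scale, and it rests on the same untreated libraries. Without library 11 it was 3.95 and without library 13 it was 3.90, and in both fits Dtx4 was no longer called. Without untreated library 3 the MC903 resident difference was 4.22 and was not called either, and without the filter on low counts neither difference was called (4.39 and 4.11). Over all alternatives the differences ran from 4.12 to 6.29 for MC903 resident and from 3.79 to 6.10 for bone marrow cells, with the highest from limma. Bone marrow and MC903 resident cells differed by -0.32 (95% interval -2.23 to 1.59), an interval that holds differences of over 2-fold in either direction. Library 15, with the high sum of macrophage and dendritic cell markers, was at 38.2 CPM. As for Dtx4, the sum of those markers and the endothelial sum were higher in every MC903 resident library than in every untreated one, and Mcpt8 was higher in every bone marrow library than in every untreated one. The part of other cells in the level of Dtx4 was not tested beyond these values.

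**Figure D1:**
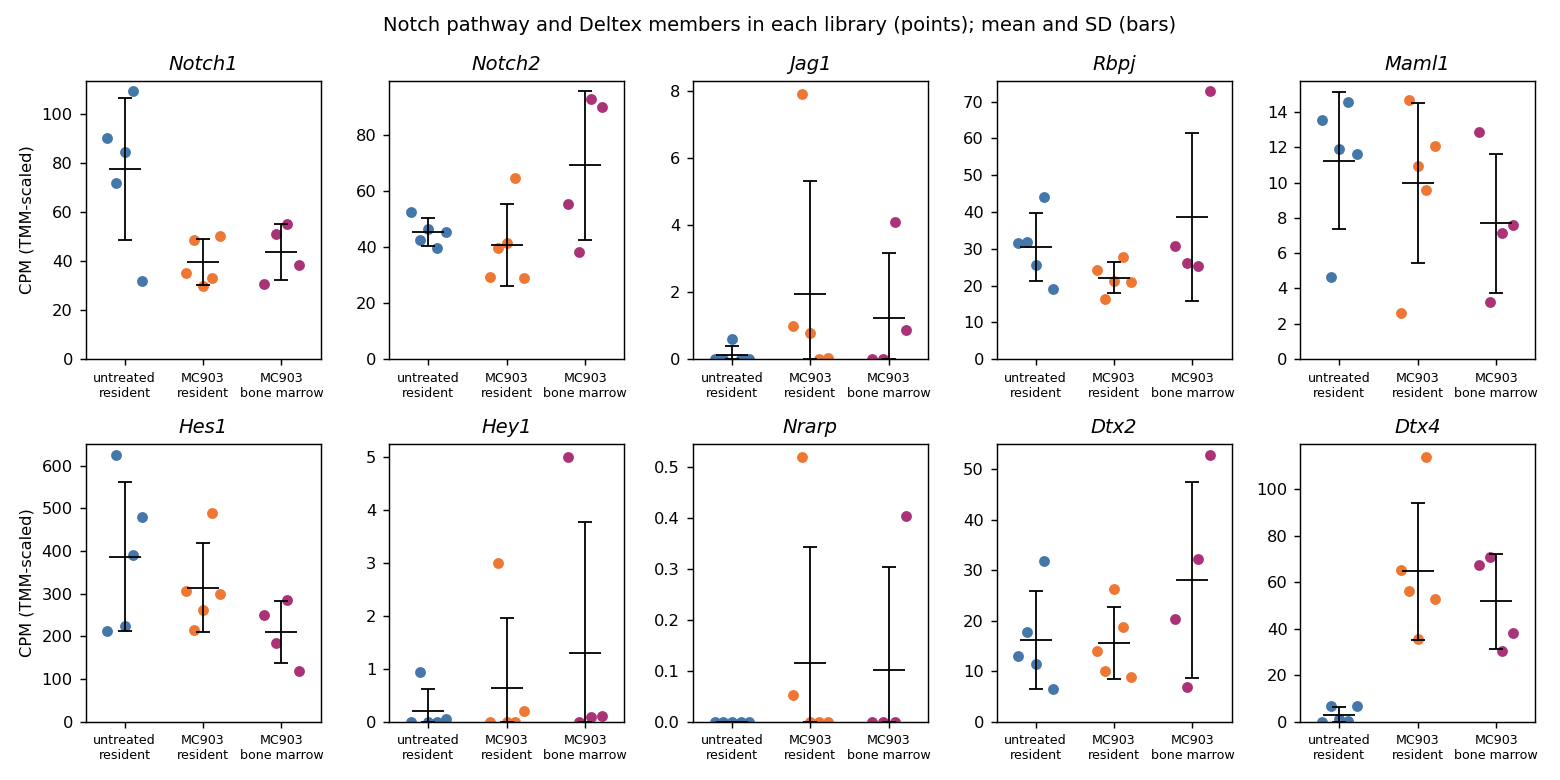
Level of each member in each of the 14 libraries, in TMM-scaled CPM (linear axes from 0, a separate scale per gene); points are libraries in order of their number within 3 groups, and bars give the mean and SD, drawn down to 0 at most. Dtx4 lay between 0 and 6.85 CPM in untreated libraries and between 30.7 and 114 CPM in all libraries of treated mice, while the groups overlapped for every other member.

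Dtx2 (ENSMUSG00000004947.15, chromosome 5, 135994800 to 136032872, plus strand), the other Deltex member, did not follow Dtx4. It was at 6.41 to 31.8 CPM in untreated resident libraries (median 12.98), at 8.91 to 26.2 CPM in the MC903 resident libraries (median 14) and at 20.2, 6.93, 32.1 and 52.7 CPM in bone marrow libraries 11, 13, 14 and 15. The ranges of the 3 groups overlapped, and library 15 was the highest of the 14. MC903 resident and untreated cells differed by -0.04 (95% interval -1.11 to 1.02) on the log2 scale, and this value changed sign with other scalings. Bone marrow cells differed from MC903 resident cells by 0.84 ± 0.542 (SE; p after Benjamini-Hochberg adjustment = 0.436 in the quasi-likelihood test of edgeR, the adjusted p used throughout). Without library 15 that difference was 0.35 (edgeR adjusted p = 0.726). Unlike Dtx4, Dtx2 was thus present in all 5 untreated libraries at levels that overlapped with those of treated mice.

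Of the receptors, Notch1 (ENSMUSG00000026923.15, chromosome 2, 26457903 to 26516663, minus strand) was lower on average in both groups of treated mice. It was at 90.5, 72.1, 84.6, 109.7 and 31.9 CPM in untreated libraries 1 to 5 and at 35.1, 48.6, 30.0, 33.1 and 50.5 CPM in the MC903 resident libraries 6 to 10. In bone marrow libraries 11, 13, 14 and 15 it was at 30.5, 51.3, 55.4 and 38.5 CPM. The overlap came from untreated library 5 alone: the other 4 untreated libraries lay above all 9 libraries of treated mice. The MC903 resident difference was -0.98 (95% interval -1.59 to -0.36) on the log2 scale, and it was not called. The bone marrow difference from untreated cells was -0.82 ± 0.317 (SE, edgeR adjusted p = 0.130). Limma with voom quality weights called the MC903 resident difference (-1.06) and not that of bone marrow cells (-0.86). Without library 5 the differences were -1.17 and -1.02, and both were called (edgeR adjusted p = 0.0215 for bone marrow cells). Among the members, library 5 was also the lowest untreated library for Rbpj and Dtx2 and the highest for Dtx4. Its TMM factor (0.872) was the lowest of the 14. Antisense transcripts share 7.50% and 2.91% of the Notch1 exon bases, and they were at most at 1.75 and 0.0577 CPM in any library.

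Notch2 (ENSMUSG00000027878.11, chromosome 3, 98013527 to 98150361, plus strand), the receptor tied to mast cell development, had its highest mean in bone marrow cells. It was at 39.7 to 52.7 CPM in untreated libraries (median 45.5) and at 29.0 to 64.8 CPM in the MC903 resident libraries (median 39.7). Bone marrow libraries 11, 13, 14 and 15 were at 55.3, 38.3, 92.9 and 89.8 CPM. Of these, 3 lay above all untreated libraries and library 13 lay below every one of them. Bone marrow cells were at 1.69 times the MC903 resident level (log2 difference 0.76 ± 0.298, SE), which did not pass after adjustment (edgeR adjusted p = 0.184). The difference from untreated cells was 0.61 ± 0.298 (SE, edgeR adjusted p = 0.247). Between MC903 resident and untreated cells it was -0.15 (95% interval -0.74 to 0.44), a sign that turned under 1 of the scalings tried and without library 10.

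Jag1 (ENSMUSG00000027276.7, chromosome 2, 137081456 to 137116644, minus strand), a Notch ligand, had at most 1 count in 8 of the 14 libraries and 12 to 137 counts in the other 6. In untreated cells only library 3 had any count (0.598 CPM). MC903 resident libraries 6 to 10 were at 0.986, 7.91, 0.771, 0 and 0.0420 CPM, and bone marrow libraries 11, 13, 14 and 15 at 0, 0, 4.08 and 0.859 CPM. Libraries 7 and 14 held most of the signal, and no group was uniformly on. Markers of fibroblasts (6 genes) and keratinocytes (7 genes) summed to 31.9 and 13.2 CPM in library 7, the highest of the 14. In library 14 they were at 3.53 and 4.38 CPM, and their part in the Jag1 level was not tested. For Jag1 the bone marrow and MC903 resident groups differed by -0.65 with a 95% interval from -5.02 to 3.73 on the log2 scale (edgeR adjusted p = 0.910). The sign of that difference turned without library 7, where it was 1.37. The MC903 resident difference from untreated cells, 3.93, was 1.89 without library 7 and 8.41 without library 3, which leaves every untreated library at 0.

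The nuclear members were present in every library. Rbpj (ENSMUSG00000039191.12, chromosome 5, 53466152 to 53657362, plus strand), the DNA-binding partner of Notch, was at 19.1 to 44.1 CPM in untreated libraries (median 31.6) and 16.4 to 27.8 CPM in the MC903 resident libraries (median 21.15). Bone marrow libraries 11, 13, 14 and 15 were at 30.7, 26.1, 25.3 and 72.8 CPM. Library 15 was thus the highest of the 14, as it was for Dtx2. The bone marrow difference from MC903 resident cells was 0.81 ± 0.365 (SE, edgeR adjusted p = 0.254) with library 15, and 0.32 (edgeR adjusted p = 0.599) without it. Against untreated cells it was 0.35 (edgeR adjusted p = 0.656) with library 15 and -0.16 (0.822) without it. The part of cells with the macrophage markers in the Rbpj and Dtx2 levels of library 15 was not tested.

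Maml1 (ENSMUSG00000050567.16, chromosome 11, 50255634 to 50292311, minus strand), a Mastermind coactivator, had overlapping levels in the 3 groups. It was at 13.6, 4.66, 11.9, 14.6 and 11.6 CPM in untreated libraries 1 to 5 and at 2.59, 14.7, 10.9, 9.59 and 12.1 CPM in the MC903 resident libraries 6 to 10. Bone marrow libraries 11, 13, 14 and 15 were at 12.8, 3.26, 7.14 and 7.58 CPM. Each group had 1 library under 5 CPM (2, 6 and 13). The means were 11.2 ± 3.88 (SD, n = 5), 9.97 ± 4.53 (SD, n = 5) and 7.71 ± 3.94 CPM (SD, n = 4) in that order. Bone marrow cells differed from MC903 resident cells by -0.37 ± 0.621 (SE, edgeR adjusted p = 0.808) and from untreated cells by -0.55 ± 0.623 (SE, 0.687).

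Of the targets, Hes1 (ENSMUSG00000022528.8, chromosome 16, 30064384 to 30067796, plus strand), a repressor of the basic helix-loop-helix type that Notch and other signals induce, was high in every library. It was at 212, 626, 225, 389.9 and 479 CPM in untreated libraries 1 to 5 and at 305, 214, 261, 488 and 299 CPM in the MC903 resident libraries 6 to 10. Bone marrow libraries 11, 13, 14 and 15 were at 251, 185, 285 and 119.5 CPM. The means in that order were 386 ± 175 (SD, n = 5), 314 ± 104 (SD, n = 5) and 210.1 ± 73.3 CPM (SD, n = 4), but the ranges overlapped. Bone marrow cells differed from untreated cells by -0.88 (95% interval -1.54 to -0.22) on the log2 scale, which missed the threshold (edgeR adjusted p = 0.107). The DESeq2 Wald test and edgeR without the filter on low counts did call it (adjusted p = 0.0376 and 0.00415). Against MC903 resident cells the difference was -0.58 ± 0.315 (SE, edgeR adjusted p = 0.350).

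Hey1 (ENSMUSG00000040289.8, chromosome 3, 8663359 to 8667256, minus strand), a related repressor, had more than 3 counts in 4 of the 14 libraries: 2, 7, 10 and 11, at 0.939, 3.001, 0.210 and 5.01 CPM. Nrarp (ENSMUSG00000078202.3, chromosome 2, 25180758 to 25183339, plus strand) had no count in any untreated library, where 3 counts would be 0.112 to 0.169 CPM. It had 9 counts in library 7, 8 in library 15, 1 in library 6 and none elsewhere. An antisense gene, Gm38287, shares 79.4% of the Nrarp exon bases and had no count in any library. Whether reads there were lost to the overlap depends on the strand setting of the counting, which is not given in the sources used here. So Hes1 was abundant in all 14 libraries, while Hey1 was at or under 3 counts in 10 of them and Nrarp in 12.

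Levels of different genes were compared per kilobase of exon. In untreated cells Hes1 led at 190 ± 85.9 CPM per kilobase (SD, n = 5), followed by Notch1 at 5.46 ± 2.04 and Notch2 at 4.204 ± 0.453. The libraries of Notch1 and Notch2 overlapped. Rbpj, Dtx2 and Maml1 came next at 2.39, 2.29 and 2.04, with overlapping libraries, and Dtx4 was seventh at 0.576 ± 0.662. In MC903 resident cells Hes1 was at 154 ± 51.2 and Dtx4 was second at 12.4 ± 5.66 CPM per kilobase, and its libraries did not overlap with those of Notch2, which came next (3.79 ± 1.35). In bone marrow cells Dtx4 was again second at 9.93 ± 3.91, here overlapping with Notch2 at 6.41 ± 2.47 CPM per kilobase. Hey1, Jag1 and Nrarp were the lowest 3 in every group.

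**Figure D2:**
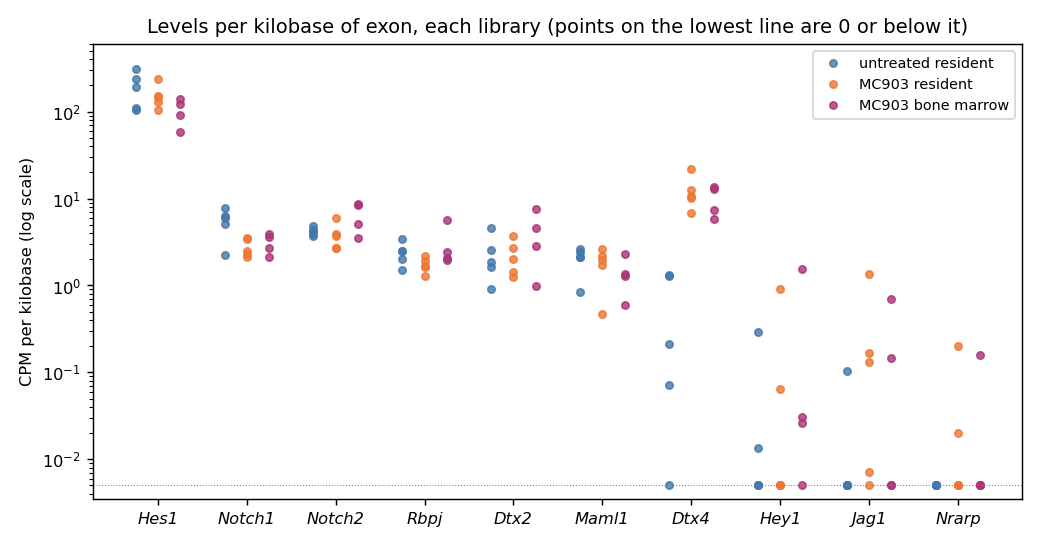
CPM per kilobase of exon for the 10 members (log axis; points are libraries, coloured by the 3 groups, and points on the dotted line are at 0 or below it). Hes1 was the highest member in all groups, and the mean of Dtx4 was 0.576 in untreated, 12.4 in MC903 resident and 9.93 in bone marrow cells.

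Across the 8 members tested, the counts of calls were small. In MC903 resident against untreated cells 1 member, Dtx4, was called, beside 2.25% of all 21014 genes tested; this is the contrast that chose the group, and nothing is read from it. For the other 7 members the log2 differences ran from -0.98 (Notch1) to 3.93 (Jag1), and the median of all 8 was -0.16 beside 0.24 for all genes. In bone marrow against MC903 resident cells no member was called by edgeR (2 of 8, Notch2 and Rbpj, had an unadjusted p under 0.05, as did 3710 of all 21014 genes), none by DESeq2 and none by limma, beside 2.27% of all genes with edgeR. In bone marrow against untreated cells Dtx4 alone was called, beside 6.87% of all genes; its untreated libraries are those that chose the group, so nothing is read from this call either. None of the other 7 members was called there. Libraries did not overlap for Dtx4 in both comparisons with untreated cells and for no member between the 2 treated groups. Over all genes, non-overlap was seen in 5.33%, 10.4% and 8.29%, for MC903 resident against untreated, bone marrow against untreated and bone marrow against MC903 resident cells. The comparisons share libraries, so they are not independent of each other.

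**Figure D3:**
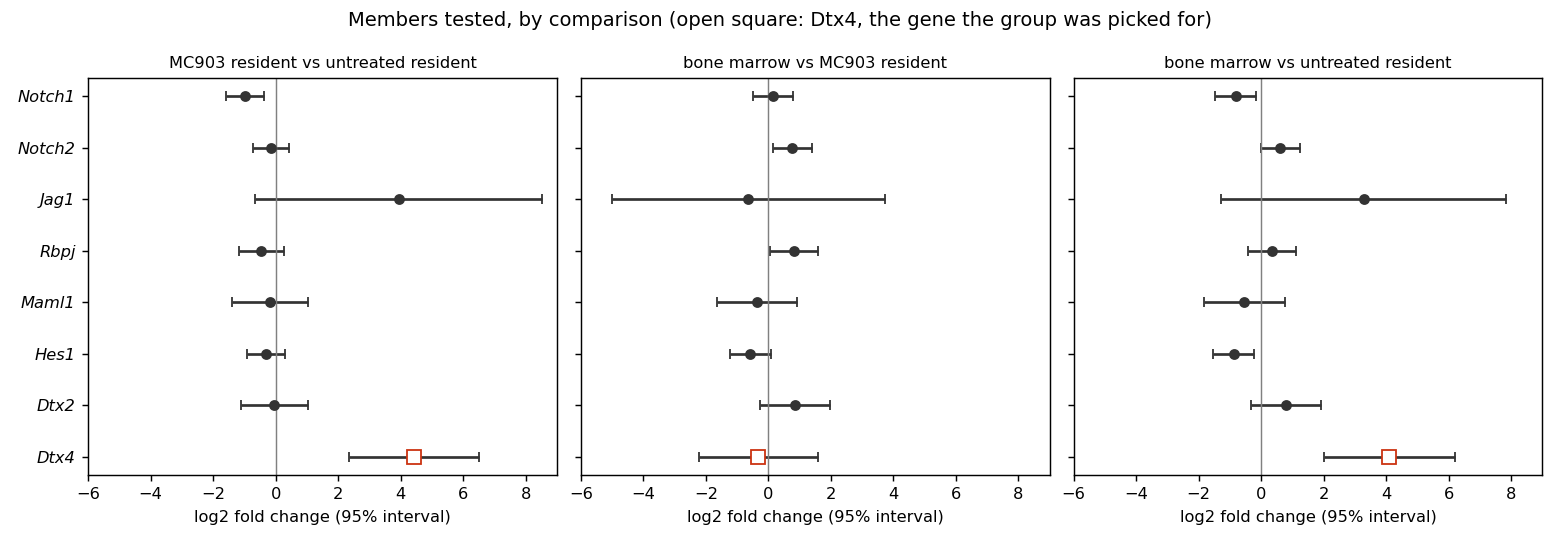
Log2 fold change of the 8 members tested, with 95% intervals, in each of the 3 comparisons (first-named group over the second; the open square is Dtx4). The interval of Jag1 was the widest in each panel, and the position of Dtx4 against untreated cells follows from how the group was picked.

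The other genes of the pathway were taken from a list of 66 in 9 roles, of which 59 passed the filter. In MC903 resident against untreated cells 5 of 59 were called (8.47%, beside 2.25% of all genes), all of them lower and none higher; over all genes 1.68% were called lower and 0.571% higher. The median log2 difference of the 59 was -0.08, beside 0.24 over all genes. Those called were Neurl3 and Numb, listed under trafficking and turnover, and Snw1, listed under coactivators. Cdkn1a and Myc, listed as genes that Notch can induce in other cells, were also called. The roles come from the list and were not tested in these cells. None of the ligands, receptors, cleavage enzymes, glycosyltransferases, corepressors or other Deltex genes was called.

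Neurl3, a Neuralized-type E3 ubiquitin ligase, was at 230.5 to 422 CPM in untreated libraries and 56.2 to 118 CPM in the MC903 resident libraries, with no overlap (log2 difference -1.97 ± 0.234, SE, edgeR adjusted p = 4.06e-05). Bone marrow libraries were as low, at 47.9 to 85.7 CPM, and differed from untreated libraries by -2.11 ± 0.255 (SE, edgeR adjusted p = 1.83e-05). Both differences were called in every alternative tried. Numb, an adaptor that antagonises Notch, was at 49.8 to 90.6 CPM in untreated libraries, 21.98 to 45.7 CPM in the MC903 resident libraries and 23.2 to 45.5 CPM in bone marrow libraries. Its differences from untreated cells were -1.09 ± 0.266 (SE, edgeR adjusted p = 0.0303) and -1.08 ± 0.286 (0.0229). The first was called only without library 5 or 9 among the fits that left out 1 library (adjusted p up to 0.115), and it was lost with 1 other scaling, without the filter and without libraries 7, 8 and 15 together (up to 0.191). The call of the second was lost without library 3, 11 or 14 or without the filter (up to 0.0932).

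Snw1, a nuclear co-regulator that binds RBPJ complexes, was at 66.3 to 104 CPM in untreated and 25.2 to 61.5 CPM in the MC903 resident libraries (log2 difference -1.12 ± 0.284, SE, edgeR adjusted p = 0.0393). When libraries were left out in turn, that call held in 1 fit of 10, without library 9. It was also lost with both other scalings and without libraries 7, 8 and 15 together (adjusted p up to 0.225). Cdkn1a, which encodes the cell cycle inhibitor p21, was at 978 to 1399 CPM in untreated and 595 to 853 CPM in the MC903 resident libraries (log2 difference -0.90 ± 0.158, SE, edgeR adjusted p = 0.00227). Myc was at 81.9 to 179.6 CPM in untreated, 5.45 to 16.6 CPM in MC903 resident and 21.5 to 29.0 CPM in bone marrow libraries. The 3 groups did not overlap for Myc. Its log2 difference from untreated cells was -3.80 ± 0.333 (SE, edgeR adjusted p = 1.66e-06) in MC903 resident cells and -2.42 ± 0.341 (SE, 9.5e-05) in bone marrow cells.

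In bone marrow against MC903 resident cells 2 of the 59 were called (3.39%, beside 2.27% of all genes; 1.32% higher and 0.952% lower over all genes), Furin and Myc, both higher. Furin, the protease that makes the first cut of newly made Notch receptors and of many other proteins, was at 702, 1142, 1439 and 737 CPM in bone marrow libraries 11, 13, 14 and 15. MC903 resident libraries ranged from 216 to 398 CPM and untreated libraries from 119.9 to 487 CPM, so the bone marrow libraries were above all others. The log2 differences were 1.64 ± 0.304 (SE, edgeR adjusted p = 0.00427) and 1.57 ± 0.304 (0.00223), and both were called in every alternative. The Myc difference was 1.38 ± 0.317 (SE, edgeR adjusted p = 0.0221), no longer past the threshold without library 6, 7 or 8, without 7, 8 and 15 together, with limma or with only these 2 groups in the fit (adjusted p up to 0.173).

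In bone marrow against untreated cells 8 of the 59 were called (13.6%, beside 6.87% of all genes; 3.49% higher and 3.37% lower over all genes), 2 higher and 6 lower. Besides Furin, the gene called higher was Notch3, a receptor. It was at 0.677, 1.68, 0, 0.993 and 0 CPM in untreated libraries 1 to 5 and at 8.10, 21.4, 10.25 and 4.80 CPM in bone marrow libraries 11, 13, 14 and 15. MC903 resident libraries 6 to 10 were at 8.30, 4.50, 19.0, 5.475 and 2.31 CPM. All 9 libraries of treated mice were therefore above the 5 untreated ones for Notch3, on a low scale. The bone marrow difference was 4.05 ± 1.19 (SE, edgeR adjusted p = 0.0428); leaving out library 1, 3, 4, 5, 11, 13 or 14 ended the call (adjusted p up to 0.119), as did leaving out 7, 8 and 15 together or fitting only these groups, while leaving out 2 or 15 did not. The MC903 resident difference, 3.55, was not called (edgeR adjusted p = 0.122). Of the endothelial markers given above, all 6 had a higher mean in MC903 resident than in untreated cells. In bone marrow cells Pecam1 had a higher mean than in untreated cells (23.2 against 0.863 CPM). Cdh5, Kdr and Vwf had lower means (0.0209, 1.35 and 1.22 CPM, against 0.594, 1.72 and 2.41 CPM), Emcn was at 0.420 against 0.286 CPM and Tie1 at 0.278 against 0.275 CPM. Cdh5 was at most at 0.0835 CPM in any bone marrow library. The part of endothelial cells in the Notch3 level was not tested beyond these values.

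Of the 6 genes called lower, Neurl3, Numb and Myc were also called lower in MC903 resident cells, a comparison with the same untreated libraries. The other 3 were Ccnd1, Ep300 and Ncor1. Ccnd1, which encodes cyclin D1, had no count in bone marrow libraries 11, 13 and 14 and 0.707 CPM in library 15, against 5.65 to 27.8 CPM in untreated and 0.388 to 2.77 CPM in the MC903 resident libraries (edgeR adjusted p = 0.00706 for bone marrow against untreated). Ep300, an acetyltransferase recruited by Mastermind, was at 13.2 to 29.65 CPM in bone marrow and 36.2 to 62.4 CPM in untreated libraries (log2 difference -1.31 ± 0.314, SE, edgeR adjusted p = 0.0122; 0.0511 without library 11 and 0.0581 without the filter). Ncor1, a corepressor that works with many factors, was at 89.5 to 197 CPM in bone marrow and 236 to 337 CPM in untreated libraries (log2 difference -1.06 ± 0.217, SE, edgeR adjusted p = 0.00347).

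**Figure D4:**
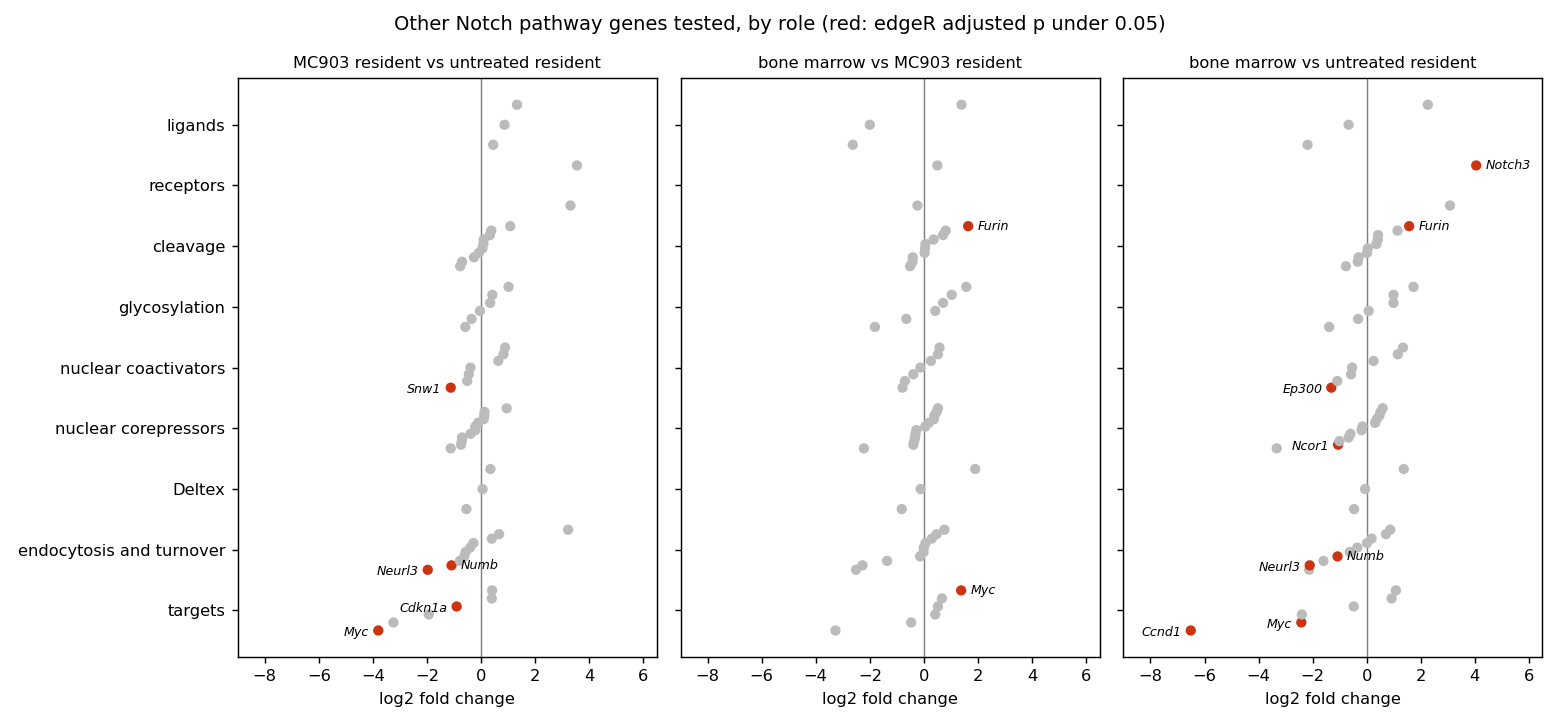
Log2 fold change of the 59 other Notch pathway genes tested, by role, in the 3 comparisons; points are genes, and those with an edgeR adjusted p under 0.05 are red and named. There were 5, 2 and 8 such genes, and all 5 of the first panel lay below 0.

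The genes whose pattern was most like that of Dtx4 were found among the 7960 genes averaging 10 CPM or more, by the Pearson correlation of log2 CPM over the 14 libraries. They were Sec11a (0.945), Rad51ap1 (0.929), Rprm (0.917), Akr1c13 (0.915) and Ndufa13 (0.906). The points share their libraries, and the difference between untreated and treated groups enters each value. For deviations from the group means the correlations were 0.899, 0.863, 0.697, 0.572 and 0.742. These rest mostly on the untreated libraries, where Dtx4 had 0 to 164 counts and its log2 CPM ran from -3.45 to 2.80. It ran from 5.15 to 6.83 in MC903 resident and from 4.94 to 6.15 in bone marrow libraries. Rprm was at 71.8 ± 34.6 CPM (SD, n = 5) in untreated, 347 ± 99.3 CPM (SD, n = 5) in MC903 resident and 224 ± 78.1 CPM (SD, n = 4) in bone marrow cells. Akr1c13 was at 54.0 ± 20.9, 330.1 ± 80.6 and 322 ± 124 CPM in the same order. Sec11a and Ndufa13 differed less between groups, with means of 96.8, 129 and 134 CPM and of 97.4, 157 and 145 CPM. Rad51ap1 had means of 2.61, 13.4 and 27.6 CPM, so that, unlike Dtx4, its highest mean was in bone marrow cells. No pathway gene was among the 5, but those averaging under 10 CPM, such as Jag1 and Notch3, were not candidates.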

How the data were processed

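Raw counts of reads per gene were used as the authors deposited them, 55487 genes in 14 libraries. Per the submitters' processing notes, STAR and featureCounts were used with mm10; versions, annotation and strand setting are not given in the sources used here. Per the labels' protocols, cDNA was made with SMART-Seq HT and libraries with Nextera XT; reads carry no molecular identifiers, so floors cover counting error only. Symbols came from a table of gene identifiers (55394 matched, version ignored), and all 10 members had the same position in GENCODE M21. Gene length in bases is the deposited Length column per the file headers. Genes passing filterByExpr (minimum count 10, total 15) were fitted in 1 model of 3 groups with edgeR 4.0.16 in R 4.3.3 (TMM, robust glmQLFit, glmQLFTest), with Benjamini-Hochberg adjustment over all genes and calls at 0.05. The common dispersion was 1.33. Standard errors are the absolute log2 fold change over the root of F, and 95% intervals use the test's degrees of freedom. The fitting code was tested on simulated data. Alternatives used DESeq2 1.42.0 and limma 3.58.1. Pairwise correlations of libraries within groups were 0.799 to 0.897, so none was a duplicate. The members and lists were chosen with earlier results of these data known. Named were all members, pathway genes called in a comparison (at most 4 a role) and the 5 genes most like Dtx4.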

Additional observations from a re-analysis of the deposited data

Results flagged for a closer look

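A library that stood apart from the rest of its group was looked for in each of the 8 members tested and 3 groups, 24 sets of libraries, with Dixon's criterion on log2 CPM. The criterion marks about 1 in 20 sets by chance. It marked 3 sets. Jag1 was at 0.598 CPM in untreated library 3 and at 0 in the other 4, a tie at which any count in 1 library meets the criterion, so this mark carries no weight. Maml1 was at 4.66 CPM in untreated library 2, against 11.6 to 14.6 CPM in the other 4. Maml1 was also at 2.59 CPM in MC903 resident library 6, against 9.59 to 14.7 CPM in the other 4. No library was marked for Dtx4 or Notch1.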

How the results depend on the processing

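The alternatives were 2 other scalings, 2 other filters, the DESeq2 Wald test, limma with voom quality weights, fits on only the groups compared, each library left out in turn, and libraries 7, 8 and 15 left out together. Those 3 had 32814 to 35246 genes with a count, against 16025 to 28790 in the others. For MC903 resident against untreated, bone marrow against MC903 resident and bone marrow against untreated cells, leaving out 1 library gave 320 to 516, 298 to 704 and 1122 to 1549 genes called, 0 to 2, 0 to 0 and 0 to 2 members, and 3 to 5, 1 to 5 and 5 to 10 other pathway genes. DESeq2 called 1073, 1719 and 2757 genes, 2 members in the last comparison and 8, 4 and 13 pathway genes. Limma called 1358, 2017 and 2194 genes, and 2 members and 8 pathway genes in the first. With no filter 0 members were called in the first and 748 genes in the second. Fits on only the groups compared called 8 pathway genes in the first, and 315 genes and 1 pathway gene in the second. Without libraries 7, 8 and 15 the first had 253 genes and 3 pathway genes called, and with TMM from genes of at least 10 CPM 3 pathway genes. The causes were not tested. The split of higher and lower calls moved with DESeq2 size factors and with that TMM, from 120 and 353 to 207 and 294 and to 251 and 266 in the first comparison, and from 277 and 200 to 167 and 242 and to 178 and 254 in the second. The median log2 difference of all genes moved from 0.24 to 0.40 and 0.45, and from -0.28 to -0.43 in both. Signs turned, in the alternatives run, only for uncalled members. Dtx2 in the first comparison was at 0.12 (DESeq2 size factors and Wald test), 0.17 (that TMM), 0.011 (mean of at least 1 CPM), 0.028 (only the groups compared), and 0.0063, 0.46, 0.0057, 0.12 and 0.22 without library 2, 4, 6, 7 or 10 (lowest -0.24, without 5). Notch2 there was at 0.036 (that TMM) and 0.054 (without library 10; lowest -0.36), and Maml1 at 0.04 (that TMM), 0.037 and 0.088 (without library 4 or 6; lowest -0.35 without library 2, and -0.47 without 7, 8 and 15). Notch1 in the second was at -0.00092, -0.013 and -0.00087 (size factors, that TMM, Wald test) and -0.02 (without library 8; highest 0.29), and Jag1 at 1.37 and 1.95 (without library 7, or 7, 8 and 15; lowest -2.76 without 14). Rbpj in the third was at -0.16 and -0.17 (without library 15, or 7, 8 and 15; highest 0.53). No paired analysis was run, because the labels do not say which libraries came from the same mice. Resident and bone marrow libraries of MC903-treated mice were therefore compared as unpaired. Hey1, Jag1 and Nrarp had 3 counts or fewer in 10, 8 and 12 of the 14 libraries, so no difference below that floor is detectable for them.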

Other observations

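The 7 pathway genes that did not pass the filter on low counts were 3 ligand genes (Dll1, Dll4 and Dlk2) and 4 target genes (Hes5, Hey2, Heyl and Ptcra). Their highest levels in any library were 1.67, 7.83 and 5.08 CPM for the ligands and 1.01, 1.54, 3.21 and 1.07 CPM for the targets. Dll4, a Delta-like ligand, and Hes5 reached their highest levels in library 15, the library with 6230 CPM of summed macrophage and dendritic cell markers. Ptcra reached its highest level in library 1. Dll1, Dlk2, Hey2 and Heyl reached theirs in library 8, which had 35246 genes with a count, the most of the 14 libraries.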
